A study of Mus musculus with 12 samples.

Results

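Expression of the pre-B-cell receptor chains and of the proteins that first carry their signal was followed in 12 RNA-seq libraries of sorted mouse cells. The set held 10 genes of the 21885 in the table, chosen as genes of the receptor, its assembly or its signalling and found in the table by symbol. They were the surrogate light chain genes Vpreb1 and Igll1, the related gene Vpreb3, whose product is not part of that chain, and the signalling chains Cd79a and Cd79b. The others were the kinases Syk, Btk and Blk, the adaptor Blnk and the phospholipase Plcg2. All 10 were among the 12200 genes that reached 10 in 4 or more libraries and were tested. Values are scaled read counts, whole reads divided by 1 factor per library, so that they can be set side by side between libraries for 1 gene.

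The 12 libraries formed 3 groups of 4. The Pax5 KO group was sorted from fetal liver of Pax5-/- genotype at the stage of common lymphoid progenitors and pre-pro-B cells. The Pax5 WT group was sorted from Pax5+/+ fetal liver at the later pro-B and pre-BI stage. The P80R B-ALL group held GFP+ B-cell acute lymphoblastic leukaemia cells with the PAX5 P80R mutation, 1 library from each of the recipients 1300, 1301, 1302 and 1308. Genotype and sorted stage therefore change together between the fetal liver groups and cannot be told apart, and the leukaemias differ from both in their source as well. The strain and age of the recipients, the tissue sampled, the promoter behind the mutant and GFP, and the cells in which leukaemia arose are not stated in these sources. Nothing in the labels says whether the fetal livers of a group came from separate animals or whether the leukaemias arose from separate donor cells, so the p-values measure the spread between these libraries, which may be partly technical. In bulk samples such as these, fewer cells of a type and less RNA per cell cannot be told apart.

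A B cell tests its first rearranged immunoglobulin heavy chain by pairing it with a surrogate light chain. That stand-in consists of a VpreB protein, from Vpreb1 or its near copy Vpreb2, and lambda5, the product of Igll1. The assembled pre-B-cell receptor reaches the surface with the heterodimer of CD79A and CD79B, whose cytoplasmic tails carry ITAM motifs that kinases of the Src family such as BLK phosphorylate. SYK docks on these motifs and phosphorylates the adaptor BLNK, which brings BTK and phospholipase C gamma 2 together so that calcium and protein kinase C signalling can start. PAX5 is a transcription factor of the B lineage, and Cd79a and Blnk are textbook examples of genes that it activates.

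In Pax5 KO, 9 of the 10 genes were lower than in Pax5 WT, as were 29.1% of all 12200 tested genes, by a log2 difference of -0.44 for Syk up to -9.77 for Vpreb3, and Plcg2 was higher. The P80R leukaemias held intermediate levels of Vpreb3, Cd79a, Cd79b and Blnk: below Pax5 WT and above Pax5 KO, with no overlap between groups. Blk was higher in the leukaemias than in either fetal liver group, and Syk was lower than in either. Vpreb1 in the leukaemias was above Pax5 KO and did not pass the test against Pax5 WT, while Igll1, its partner, was below Pax5 WT and did not pass the test against Pax5 KO.

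Sequences just upstream of the transcription start are shown for 5 members, the receptor chains with an entry, Vpreb3 and the adaptor, which were lower in Pax5 KO together. They are also shown for Vpreb2, whose reads can be mistaken for those of Vpreb1. They are the 250 bases before the start in RefSeq on build GRCm38.p6, written 5′ to 3′ on the strand of the gene. Promoter entries were matched for 8 of the 10 members, all but Cd79b and Blk. Capitals mark exact matches, on either strand, to 6 motifs searched: the E-box forms CACCTG and CAGCTG, the core CCCNNGGG bound by EBF1, the octamer ATGCAAAT, the core GCGTGAC of the PAX5 paired domain, and GAGGAAGT bound by PU.1 and Ets factors. No motif overlapped another in the 6 sequences shown. A match is a description of the letters, not evidence that a factor binds there. Only exact matches were searched, so the lack of a match does not show that a site is missing. Vpreb1 lies on the minus strand at chr16:16869256-16869505, Vpreb2 on the plus strand at chr16:17980315-17980564, Igll1 on the minus strand at chr16:16863986-16864235, Cd79a on the plus strand at chr7:24897247-24897496, Vpreb3 on the plus strand at chr10:75948050-75948299 and Blnk on the minus strand at chr19:40994222-40994471.
Vpreb1: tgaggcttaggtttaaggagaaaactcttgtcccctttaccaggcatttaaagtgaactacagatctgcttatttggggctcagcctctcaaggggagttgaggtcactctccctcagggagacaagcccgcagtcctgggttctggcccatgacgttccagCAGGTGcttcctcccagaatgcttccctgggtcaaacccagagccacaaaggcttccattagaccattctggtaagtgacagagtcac
Vpreb2: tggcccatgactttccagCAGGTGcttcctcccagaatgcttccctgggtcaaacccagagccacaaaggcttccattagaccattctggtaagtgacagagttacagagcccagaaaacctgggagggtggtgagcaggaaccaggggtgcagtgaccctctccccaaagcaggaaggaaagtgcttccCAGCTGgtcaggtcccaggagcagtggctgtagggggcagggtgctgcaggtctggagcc
Igll1: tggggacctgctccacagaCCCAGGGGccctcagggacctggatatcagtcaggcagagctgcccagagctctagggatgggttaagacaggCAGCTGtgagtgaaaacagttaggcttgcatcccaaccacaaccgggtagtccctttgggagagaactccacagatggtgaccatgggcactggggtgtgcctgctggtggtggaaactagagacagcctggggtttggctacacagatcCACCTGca
Cd79a: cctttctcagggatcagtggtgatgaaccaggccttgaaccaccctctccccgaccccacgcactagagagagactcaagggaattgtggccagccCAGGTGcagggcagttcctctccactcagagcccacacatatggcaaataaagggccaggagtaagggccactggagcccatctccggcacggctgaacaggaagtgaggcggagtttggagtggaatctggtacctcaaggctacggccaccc
Vpreb3: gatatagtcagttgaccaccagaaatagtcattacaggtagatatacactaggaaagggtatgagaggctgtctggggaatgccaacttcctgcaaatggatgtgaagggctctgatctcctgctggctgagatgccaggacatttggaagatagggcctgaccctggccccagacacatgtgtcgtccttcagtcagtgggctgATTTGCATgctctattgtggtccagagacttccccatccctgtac
Blnk: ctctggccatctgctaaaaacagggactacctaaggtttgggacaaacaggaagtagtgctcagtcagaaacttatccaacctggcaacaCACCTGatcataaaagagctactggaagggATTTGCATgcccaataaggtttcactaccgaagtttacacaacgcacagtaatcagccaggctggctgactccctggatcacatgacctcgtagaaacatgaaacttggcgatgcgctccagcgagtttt

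CACCTG, read on both strands, was found upstream of 6 of the 8 members with an entry: Blnk, Cd79a, Igll1, Plcg2, Syk and Vpreb1. Of all 32851 promoters of this length, 17.2% held it. Its first base stood at -88 in Vpreb1, -8 in Igll1, -154 in Cd79a and -160 in Blnk, counted back from the start. The octamer stood at -45 in Vpreb3 and -130 in Blnk, and 1.6% of all promoters held it. CCCNNGGG was found at -231 and CAGCTG at -158 in Igll1, against 11.8% and 13% of all promoters. GCGTGAC was found in 1 of the 8 members, upstream of a second start of Syk (1.8% of all promoters), and GAGGAAGT in none (2.4%). Vpreb1 and Vpreb2 share a run of 91 identical bases, which spans -94 to -4 in Vpreb1 and -238 to -148 in Vpreb2 and contains the CACCTG match of both. The copies thus share upstream sequence at different distances from their annotated starts.

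The leukaemia libraries were the shallowest, with 24914250 to 29386256 reads each, beside 33191950 to 39465256 for Pax5 WT and 36871775 to 43513852 for Pax5 KO. Pax5 itself, the gene deleted by label, had 230, 247, 267 and 266 scaled reads in the Pax5 KO libraries and 6194 to 7316 in Pax5 WT. It had 847, 1146, 1316 and 255 in recipients 1300, 1301, 1302 and 1308, so that recipient 1308 lay within the Pax5 KO range. Whether the mutant sequence itself adds to this count is not stated. The summed level of 12 B-lineage markers, 5 of them members of the set, was 42370 to 43209 in Pax5 KO, 243190 to 281520 for Pax5 WT and 104770 to 191800 in the leukaemias. The mature B-cell marker Ms4a1 was between 0 and 685 in the leukaemias, below every Pax5 WT library (1102.5 to 1436.4), and 0 to 4.11 in Pax5 KO.

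Markers of other cells were also present in the leukaemia libraries. Erythroid and granulocyte markers were highest in recipients 1300 and 1308, and the other lists had other orders. The summed level of 9 erythroid markers was 411020, 38847, 32561 and 1066700 in recipients 1300, 1301, 1302 and 1308, against 266 at most in the fetal liver groups, and no leukaemia had any of the 9 at 0. The 11 granulocyte and monocyte markers summed to 134760, 13356, 4956 and 160210, with 0 to 2 at 0, against 10077 to 10793 in Pax5 KO and 584 to 846 in Pax5 WT. Plasmacytoid dendritic cell markers (8 genes, 0 or 1 at 0) summed to 243710 in recipient 1308 and 18325 to 50791 in the others, against 29321 to 31203 in Pax5 KO and 20094 to 21029 in Pax5 WT. Most of the Pax5 WT sum was Ly6d, Tcf4 and Spib. Siglech and Klk1 were at 0 in Pax5 WT, with Ccr9 at 7.91 or less and Runx2 at 7.56 or less. In Pax5 KO Siglech was at 1166 to 1224, Ccr9 at 3150 to 3654 and Runx2 at 1942 to 2355, with Klk1 at 0. Siglech was at 101, 52.9, 325 and 26551 in recipients 1300, 1301, 1302 and 1308. The 10 T-lineage markers summed to 5687 in recipient 1302 and up to 14490 in recipient 1301. Most of each sum was Lck, at 5002 and 13799 in these recipients. Of the other T-lineage markers, Cd247 was highest in recipient 1301. Cd3e, Cd3d, Cd3g, Ptcra, Cd8a, Cd4, Bcl11b and Gata3 were highest in recipient 1308 among the leukaemias, with Cd3e at 834 there and 50.5 in recipient 1301. The 8 NK and innate lymphoid markers summed to 1474 in recipient 1301 and up to 20283 in recipient 1308, and the 9 macrophage markers to 4386 in recipient 1300 and up to 31422 in recipient 1308, with at most 2 at 0 in each list. The hepatocyte list summed to 11038 in recipient 1308 and up to 22942 in recipient 1301, but Alb, Apoa1, Ttr and Serpina1a were at 0 in all 12 libraries. Nearly all of each leukaemia sum was the 1 gene Trf, at 10927 to 22910, with Afp at 83.0 or less and Apoa2 at 29.5 or less. The part of such cells in the leukaemia values was not tested. Every difference was also computed without recipients 1300 and 1308, and the value is given beside a member where it changes the call or the direction or moves by over 1.5 times.

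**Figure D1:**
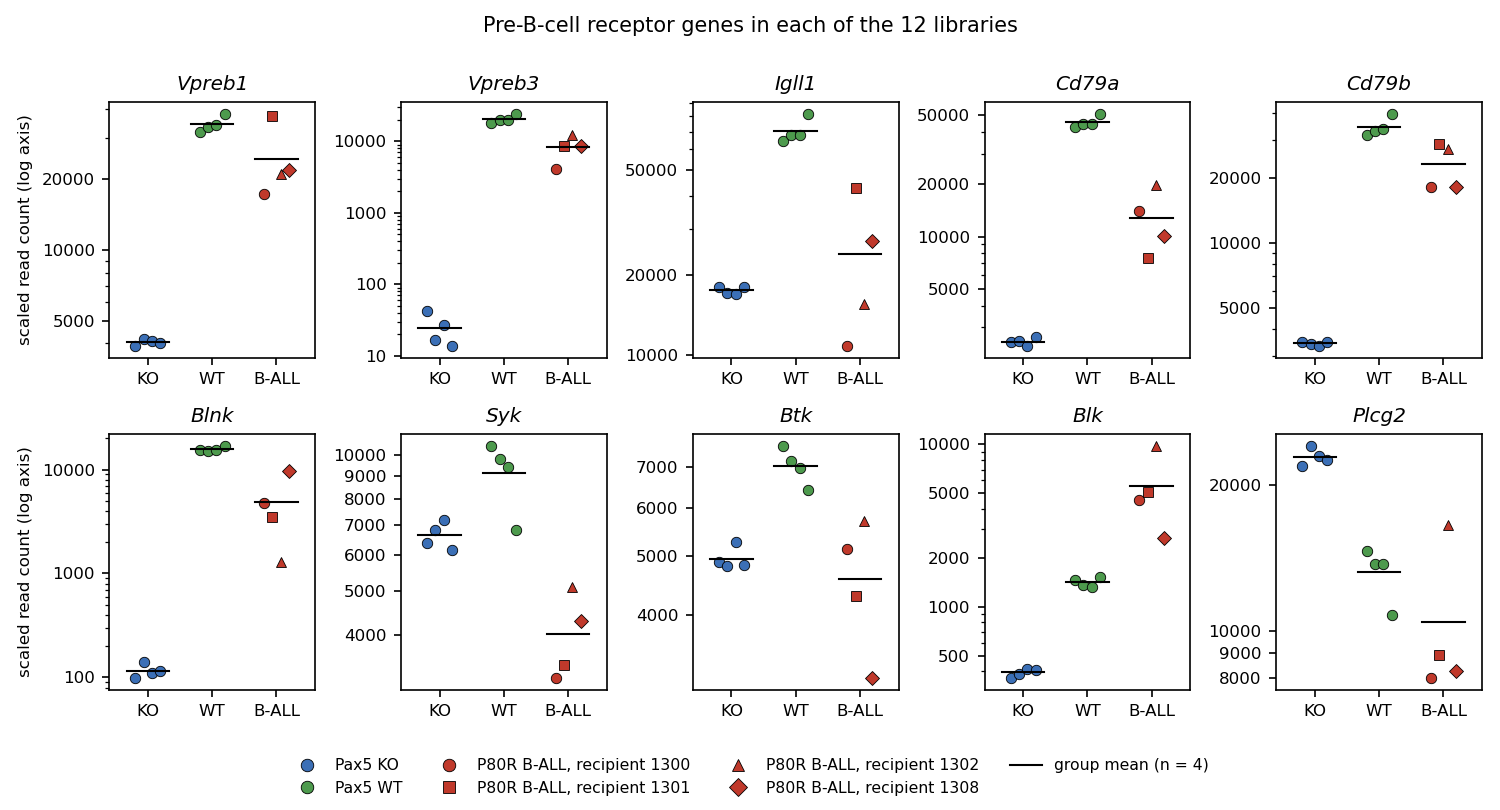
Scaled read count (log axis) of the 10 genes in each of the 12 libraries; each point is a library, the horizontal line is the mean of 4 libraries, and the symbol shape marks the recipient. The Pax5 KO libraries lie close together and far below Pax5 WT for Vpreb3 (13.7 to 41.9 against 18036 to 24256) and Blnk (99.0 to 140 against 15043 to 16933), and the leukaemias are the most spread group.

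Among the surrogate light chain genes, Vpreb1 was low in Pax5 KO, with values of 3901, 4166, 4089 and 4015, and high in Pax5 WT, with 31837, 33353, 34235 and 38050. The leukaemias had 17247, 37185, 21052 and 21904 in the order of the recipients. The fetal liver groups did not overlap, recipient 1301 lay inside the Pax5 WT range, and the other 3 leukaemias lay between the groups. The log2 difference was -3.09 ± 0.06 (SE, n = 4 per group) between Pax5 KO and Pax5 WT (adjusted p = 2.1e-12, limma, here and for the other single-gene tests) and 2.53 ± 0.215 between the leukaemias and Pax5 KO (adjusted p = 0.000154). Against Pax5 WT the difference of -0.56 ± 0.22 did not pass (adjusted p = 0.0668). It passed without recipient 1301 (-0.78, adjusted p = 0.00218) and in a fit to all 12 libraries (adjusted p = 0.0232), and was smaller without recipients 1300 and 1308 (-0.29, adjusted p = 0.313).

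Vpreb2, which encodes the alternative VpreB protein and was not a member, was at 8362 to 8917 in Pax5 KO and 12155 to 15525 in Pax5 WT. In the leukaemias it was at 2829, 56213, 27177 and 4668. Recipients 1301 and 1302 lay above every fetal liver library and recipients 1300 and 1308 below them all. With this spread the leukaemias did not pass the test against either group (-0.18 ± 0.85 against Pax5 WT, adjusted p = 0.883; 0.48 ± 0.85 against Pax5 KO, adjusted p = 0.683). Vpreb2 was higher than in both groups without recipients 1300 and 1308 (1.53 against Pax5 WT, adjusted p = 0.00467; 2.19 against Pax5 KO, adjusted p = 0.000961). Between Pax5 KO and Pax5 WT it fell by 0.66 on the log2 scale (adjusted p = 5.23e-06), a call lost in the fit to all 12 libraries (adjusted p = 0.516). Of the 50-base stretches of Vpreb1 transcripts, 23.6% also occur in another gene, Vpreb2 or Top3b, and 32.8% of those of Vpreb2 occur in Vpreb1. Top3b overlaps Vpreb1 on the opposite strand, and the library kit does not mark strand. The split of reads between these genes is uncertain to that extent.

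Igll1, the gene of lambda5, was at 18042, 17211, 16975 and 18130 in Pax5 KO and 64600, 67941, 67868 and 81715 in Pax5 WT. The leukaemias had 10811, 42896, 15583 and 27074, all below every Pax5 WT library. Recipients 1300 and 1302 were below every Pax5 KO library, and recipients 1301 and 1308 were above them. The log2 difference from Pax5 WT was -2.0 ± 0.07 for Pax5 KO (adjusted p = 2.55e-10) and -1.74 ± 0.37 for the leukaemias (adjusted p = 0.00536). The leukaemias and Pax5 KO did not differ past the threshold (0.26 ± 0.37, 95% interval -0.58 to 1.09, adjusted p = 0.607), nor without recipients 1300 and 1308 (0.56, adjusted p = 0.223).

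Vpreb3, whose product associates with immunoglobulin chains early in their assembly, had the widest range of the set. It was at 41.9, 16.4, 26.6 and 13.7 in Pax5 KO, 18036, 19806, 20150 and 24256 in Pax5 WT, and 4126, 8591, 12228 and 8588 in the leukaemias. The 3 groups did not overlap, and every leukaemia was far closer to Pax5 WT than to Pax5 KO on the log scale. The log2 difference between Pax5 KO and Pax5 WT was -9.77 ± 0.27 (adjusted p = 2.94e-11). The leukaemias were lower than Pax5 WT by a log2 difference of -1.39 ± 0.29 (adjusted p = 0.00466) and higher than Pax5 KO by 8.38 ± 0.42 (adjusted p = 1.52e-05).

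The signalling chains followed the same order of groups. Cd79a was at 2485, 2486, 2343 and 2627 in Pax5 KO, 43011, 44539, 44643 and 50939 in Pax5 WT, and 14008, 7485, 19767 and 10039 in the leukaemias. No group overlapped another. Its log2 difference from Pax5 WT was -4.20 ± 0.06 in Pax5 KO (adjusted p = 2.12e-13) and -1.93 ± 0.26 in the leukaemias (adjusted p = 0.000522), and the leukaemias stood 2.27 ± 0.265 above Pax5 KO (adjusted p = 0.000549). Of the 50-base stretches of Cd79a, 8.31% also occur in the predicted gene Gm32220, so the split of its reads is uncertain to that extent.

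Cd79b was at 3482, 3406, 3334 and 3469 in Pax5 KO, 31527, 32806, 33570 and 39563 in Pax5 WT, and 18111, 28745, 27324 and 18143 in the leukaemias. The groups again did not overlap, but the leukaemias reached closer to Pax5 WT than for Cd79a. Pax5 KO differed from Pax5 WT by -3.32 ± 0.07 (adjusted p = 3.44e-12) and the leukaemias from Pax5 KO by 2.72 ± 0.18 (adjusted p = 4.2e-05). The difference between the leukaemias and Pax5 WT, -0.60 ± 0.19 (adjusted p = 0.0277), was lost when any 1 Pax5 WT library was left out (adjusted p = 0.0535 to 0.0771). It was also lost without recipient 1300 (adjusted p = 0.0645), without 1308 (adjusted p = 0.0535) and without both (-0.29, adjusted p = 0.0948).

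**Figure D2:**
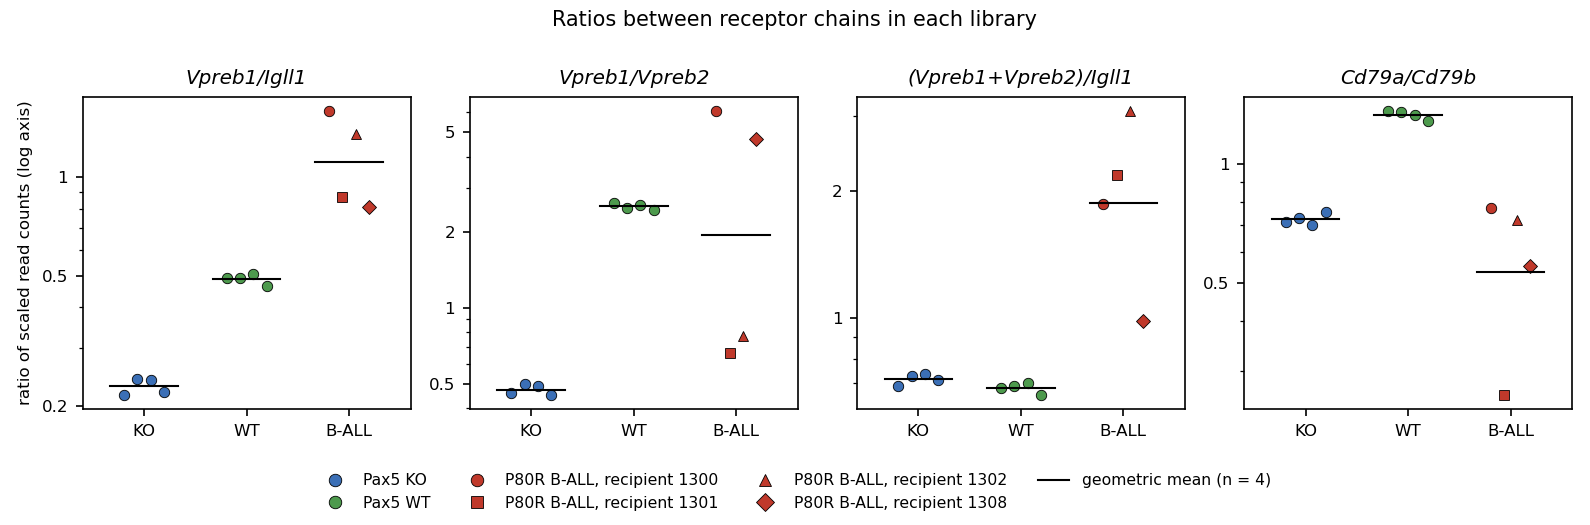
Ratios of scaled read counts (log axis) between receptor chains in each library; each point is a library and the line is the geometric mean of 4. Pax5 WT has the highest Cd79a/Cd79b ratios (1.29 to 1.36), the leukaemias have the highest Vpreb1/Igll1 ratios (0.809 to 1.60), and their Vpreb1/Vpreb2 ratios split into 2 values below 1 and 2 above 4.

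Ratios between partner chains do not depend on the scaling factor of a library. They were compared by exact permutation tests, two-sided, whose smallest possible p with 4 against 4 is 0.0286, and adjusted over 21 tests (7 ratios in 3 comparisons), so that every ratio whose groups did not overlap had an adjusted p of 0.0375. Vpreb1/Igll1 was 0.216 to 0.242 in Pax5 KO, 0.466 to 0.504 for Pax5 WT and 1.60, 0.867, 1.35 and 0.809 in the leukaemias. All 3 groups were apart, with a log2 difference between the leukaemias and Pax5 WT of 1.18 ± 0.24 (SE). In the leukaemias the VpreB gene was thus high relative to the lambda5 gene by this measure.

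Counting both VpreB genes changed part of this picture. The ratio of Vpreb1 plus Vpreb2 to Igll1 was 0.689 to 0.735 in Pax5 KO and 0.656 to 0.700 in Pax5 WT, a log2 difference of 0.07 (adjusted exact p = 0.075), where Vpreb1 alone had given -1.09. The fetal liver groups thus differed in the balance of the 2 VpreB genes, and a difference of their sum relative to Igll1 did not pass. In the leukaemias the summed ratio was 1.86, 2.18, 3.10 and 0.981, still above all fetal liver libraries, with log2 differences of 1.46 from Pax5 WT and 1.39 from Pax5 KO (adjusted exact p = 0.04 for both). Vpreb1/Vpreb2 was 0.450 to 0.498 in Pax5 KO and 2.45 to 2.62 in Pax5 WT. In the leukaemias it was 6.10 and 4.69 in recipients 1300 and 1308 and 0.662 and 0.775 in recipients 1301 and 1302, and this ratio was not tested.

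Cd79a/Cd79b was 0.703 to 0.757 in Pax5 KO, 1.29 to 1.36 for Pax5 WT and 0.773, 0.260, 0.723 and 0.553 in the leukaemias. Both Pax5 KO and the leukaemias were below every Pax5 WT library (log2 differences of -0.88 ± 0.03 and -1.32 ± 0.36). The leukaemias overlapped Pax5 KO (-0.45 ± 0.36, exact permutation test, adjusted p = 0.371), and this difference was -0.10 without recipient 1301 and -0.74 without recipients 1300 and 1308. The RNA ratio of the 2 chains was thus steady within each fetal liver group and varied among the leukaemias, with recipient 1301 lowest.

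Among the kinases, Syk, which docks on the phosphorylated CD79 tails, was at 6378, 6831, 7170 and 6180 in Pax5 KO, 10485, 9799, 9424 and 6833 in Pax5 WT, and 3213, 3432, 5110 and 4285 in the leukaemias. Every leukaemia was below every fetal liver library. Pax5 WT replicate 4 lay inside the Pax5 KO range. The log2 difference was -1.19 ± 0.19 between the leukaemias and Pax5 WT (adjusted p = 0.00128) and -0.75 ± 0.16 between the leukaemias and Pax5 KO (adjusted p = 0.00756). The smaller difference between Pax5 KO and Pax5 WT, -0.44 ± 0.11 (adjusted p = 0.00464), was lost in a fit to all 12 libraries (adjusted p = 0.0532).

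Btk, the Tec-family kinase that acts on PLCG2, was at 4893, 4813, 5264 and 4840 in Pax5 KO, 7573, 7144, 6956 and 6417 in Pax5 WT, and 5138, 4307, 5709 and 3159 in the leukaemias. Pax5 WT was above all the other libraries. Pax5 KO was lower by -0.50 ± 0.06 (adjusted p = 2.03e-05) and the leukaemias by -0.65 ± 0.19 (adjusted p = 0.0204) on the log2 scale. The latter call was lost without Pax5 WT replicate 1, 2 or 3 (adjusted p = 0.063, 0.0572 and 0.0542). Leukaemias and Pax5 KO did not differ past the threshold (-0.15 ± 0.18, 95% interval -0.56 to 0.26, adjusted p = 0.548), nor without recipients 1300 and 1308 (0.003, adjusted p = 0.988).

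Blk, the B-lineage kinase of the Src family, was the 1 member that was higher in the leukaemias than in Pax5 WT. It was at 365, 386, 414 and 410 in Pax5 KO, 1469, 1367, 1333 and 1516 in Pax5 WT, and 4519, 5069, 9803 and 2665 in the leukaemias. The groups did not overlap, and recipient 1302 was highest. Pax5 KO differed from Pax5 WT by -1.85 ± 0.08 (adjusted p = 1.89e-09). The leukaemias differed from Pax5 WT by 1.80 ± 0.33 (adjusted p = 0.0023) and from Pax5 KO by 3.65 ± 0.33 (adjusted p = 0.000211). Without recipients 1300 and 1308 these were 2.31 and 4.16.

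The adaptor Blnk was low in Pax5 KO, at 99.0, 140, 110 and 116, and at 15429, 15043, 15405 and 16933 in Pax5 WT. The leukaemias had 4806, 3491, 1278 and 9723, a range of 7.61-fold, and did not overlap either group. The log2 difference from Pax5 WT was -7.08 ± 0.10 in Pax5 KO (adjusted p = 1.69e-13) and -2.04 ± 0.51 in the leukaemias (adjusted p = 0.0115), and the leukaemias were 5.03 ± 0.52 above Pax5 KO (adjusted p = 0.000354). The leukaemia mean of 4824 depended on recipient 1308 and was 3192 without it. Without both recipients 1300 and 1308 the difference from Pax5 WT was -2.89 (adjusted p = 0.000954).

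Plcg2, the enzyme that generates the calcium-mobilising messenger, ran the other way between the fetal liver groups. It was at 21842, 24071, 22890 and 22479 in Pax5 KO, 14597, 13746, 13721 and 10819 in Pax5 WT, and 8015, 8942, 16520 and 8266 in the leukaemias. Pax5 KO was above all other libraries, by 0.80 ± 0.08 over Pax5 WT (adjusted p = 4.81e-06), and the leukaemias were below Pax5 KO (-1.20 ± 0.22, adjusted p = 0.00399). Recipients 1300, 1301 and 1308 were below every Pax5 WT library and recipient 1302 above them all. The leukaemias did not pass the test against Pax5 WT (-0.40 ± 0.23, 95% interval -0.92 to 0.12, adjusted p = 0.196), and passed it without recipient 1302 (-0.65, adjusted p = 0.00657). The difference was -0.11 without recipients 1300 and 1308 (adjusted p = 0.736).

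**Figure D3:**
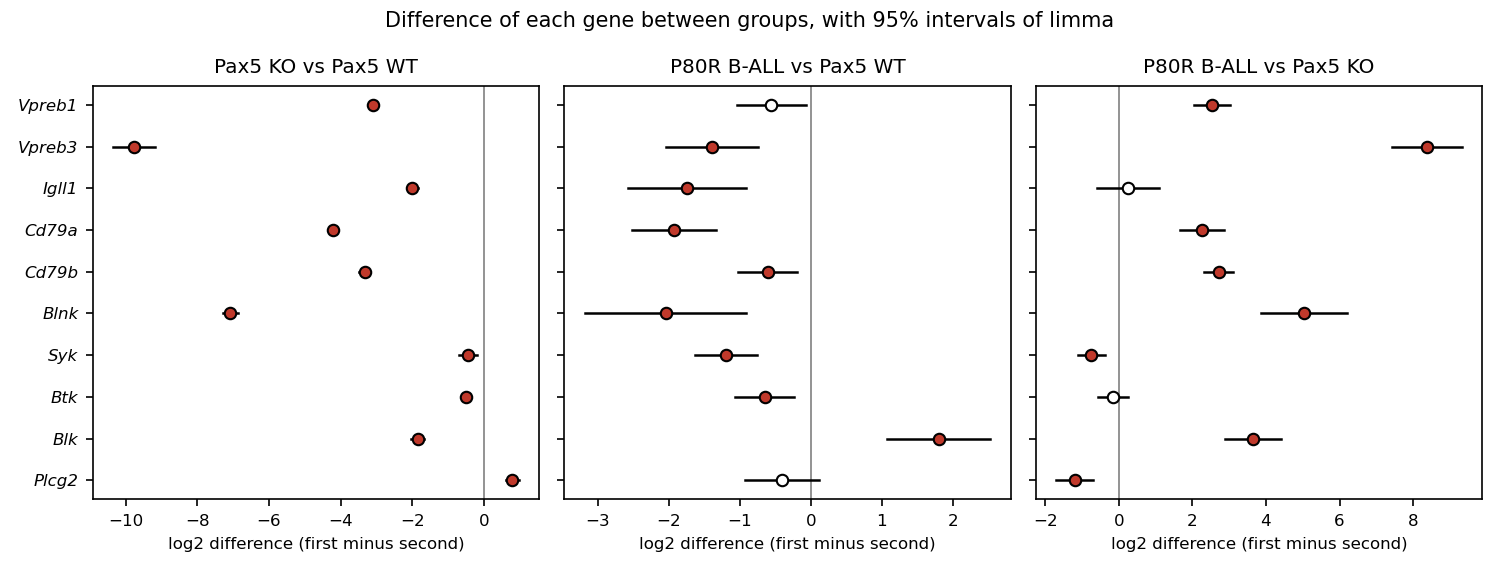
Log2 difference of each of the 10 genes in the 3 comparisons (first group minus second), with the 95% interval of limma; filled points passed an adjusted p of 0.05. Between Pax5 KO and Pax5 WT 9 genes lie below 0 and Plcg2 above, and Blk is the 1 gene above 0 with a filled point between the leukaemias and Pax5 WT.

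Counts over the set have to be read beside a wide background. Between Pax5 KO and Pax5 WT 64.8% of the 12200 tested genes were called, 35.7% higher and 29.1% lower in Pax5 KO; of the 10 members all were called, 1 higher and 9 lower. Between the leukaemias and Pax5 WT 39.9% were called, 21% higher and 18.9% lower, and 8 of the members, 1 higher and 7 lower. Between the leukaemias and Pax5 KO 38.4% were called, 17.6% higher and 20.8% lower, and 8 of the members, 6 higher (Vpreb1, Vpreb3, Cd79a, Cd79b, Blnk and Blk) and 2 lower (Syk and Plcg2). The groups did not overlap for 9, 8 and 8 members in the same order. The share of all tested genes without overlap is not given here, so these counts do not set the members apart. The median log2 difference of the members was -2.54, -0.92 and 2.40, beside medians of 0.06, -0.004 and -0.11 over all tested genes.

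The 3 comparisons share libraries pairwise, so their values are set side by side and not correlated. The scaling of the leukaemia libraries matters for the background: the median over all genes between the leukaemias and Pax5 KO was 0.08 with DESeq2, and the share of calls that were higher was 57.9% with edgeR and 57.4% with DESeq2 against 45.9% here. No member changed direction under edgeR, DESeq2 or TMM scaling, and both count tools called 10, 8 and 8 members.

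**Figure D4:**
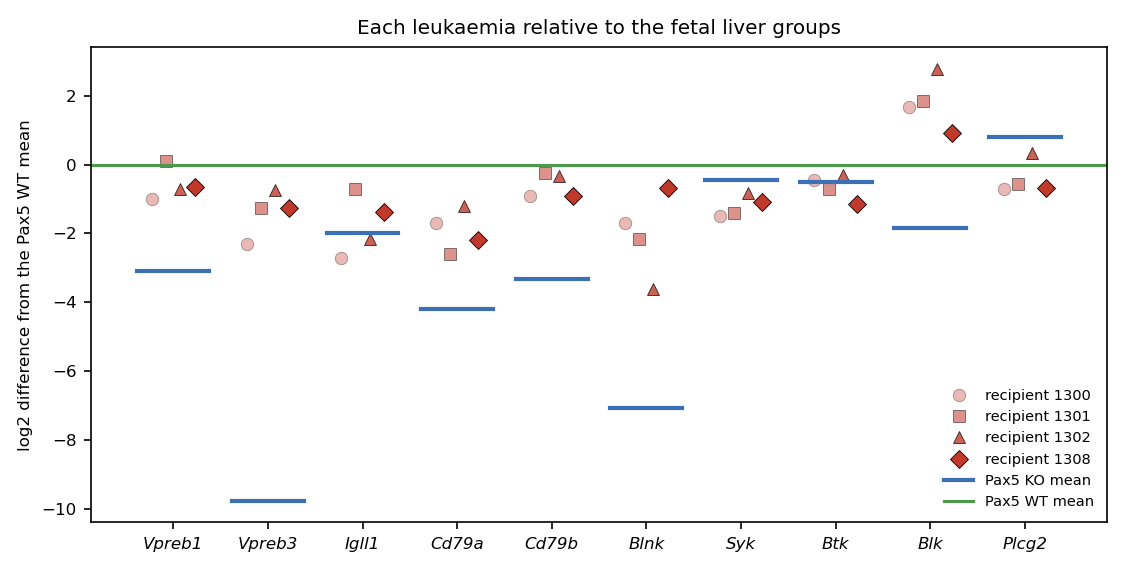
Log2 difference of each leukaemia from the Pax5 WT mean (green line at 0) for the 10 genes, with the Pax5 KO mean as a blue bar. For Vpreb1, Vpreb3, Cd79a, Cd79b and Blnk all 4 recipients lie above the Pax5 KO mean, for Blk they lie above both means, and for Syk below both.

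Levels can be compared between genes only per kilobase of exon. On this scale the surrogate light chain genes, the CD79 genes and Vpreb3 led in Pax5 WT. Igll1 was at 32593 ± 3520 scaled reads per kb (SD, n = 4), Cd79a at 31423 ± 2414, Vpreb1 at 28665 ± 2207, Cd79b at 24016 ± 2492 and Vpreb3 at 23937 ± 3063. Igll1 and Cd79a differed by less than their SD, and so did Cd79b and Vpreb3. The signalling genes were lower, from 3076 ± 384 for Plcg2, 2621 ± 140 for Blnk and 2230 ± 152 for Btk to 976 ± 171 for Syk and 527 ± 31.8 for Blk.

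In Pax5 KO the order per kb was Igll1 (8128), Plcg2 (5310), Vpreb1 (3372), Cd79b (2392), Cd79a (1706), Btk (1573), Syk (709), Blk (146), Vpreb3 (28.7) and Blnk (19.4). The phospholipase gene thus followed directly after Igll1, and the adaptor gene that recruits it stood last, within the SD of Vpreb3 (14.8). In the leukaemias Vpreb1 led with 20306 ± 7335, ahead of Cd79b with 16129 ± 4018 and Igll1 with 11133 ± 6596, then Vpreb3 with 9759 ± 3861 and Cd79a with 8802 ± 3672. These ranges overlap between neighbours. Blk, last in Pax5 WT, was at 2044 ± 1126 in the leukaemias and overlapped Plcg2 (2428 ± 948) and Btk (1454 ± 352), while Blnk (805 ± 597) and Syk (428 ± 92.6) had the lowest means. Blnk was at 213 to 1623 per kb and Syk at 343 to 546, so their ranges overlapped.

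**Figure D5:**
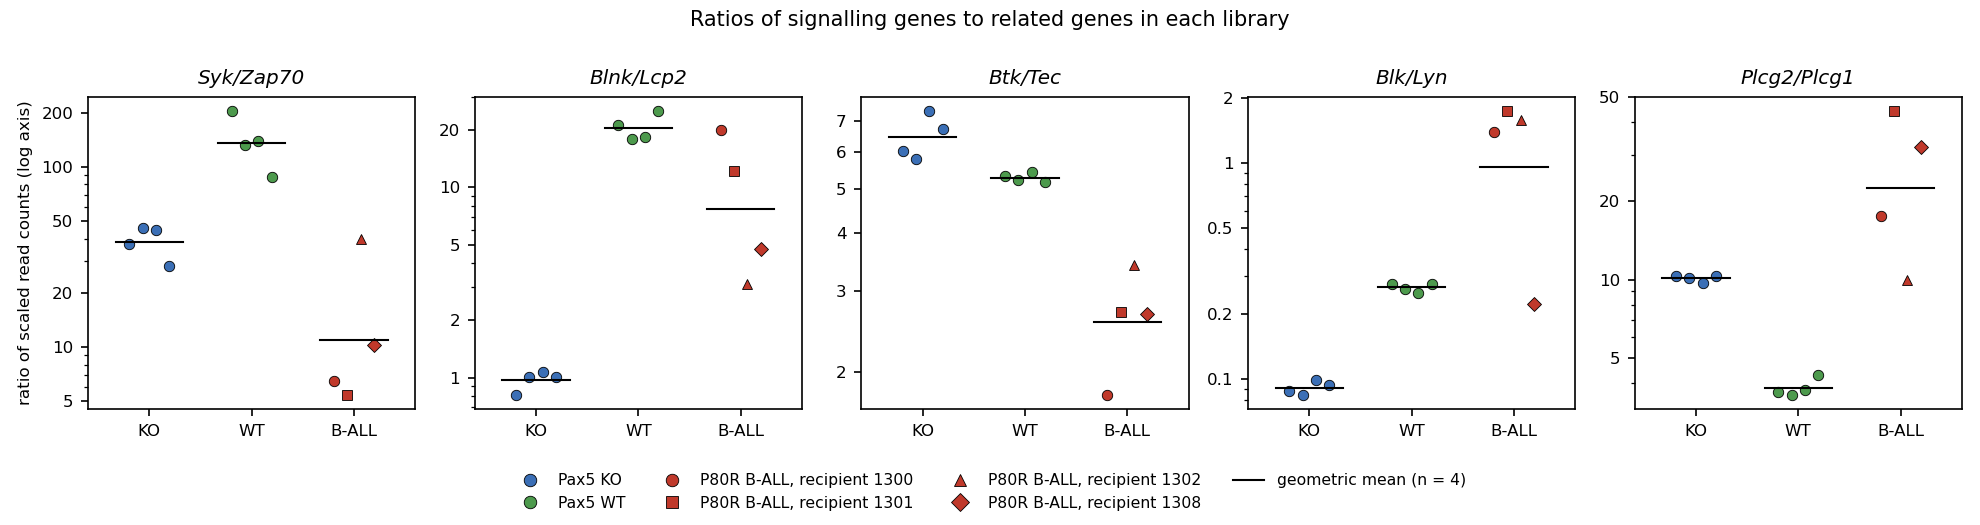
Ratios of scaled read counts (log axis) of a signalling gene to a related gene in each library; each point is a library and the line is the geometric mean of 4. Blnk/Lcp2 is near 1 in Pax5 KO (0.813 to 1.07) and 18.0 or more in Pax5 WT, and Blk/Lyn is above 1 in 3 of the 4 leukaemias.

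Each signalling member was also set against a related gene. Not all of these related genes mark other lineages. In Pax5 WT Lyn had a mean of 1311 scaled reads per kb, above the 527 of Blk, and Tec one of 355. Syk/Zap70, SYK against its T-cell relative, was 28.3 to 45.9 in Pax5 KO, 88.3 to 205 for Pax5 WT and 6.50, 5.43, 39.6 and 10.3 in the leukaemias. It was lower than Pax5 WT in Pax5 KO (-1.80 ± 0.30) and in the leukaemias (-3.61 ± 0.69); recipient 1302 overlapped Pax5 KO, and that comparison did not pass (exact permutation test, adjusted p = 0.1). Zap70 itself was at 494, 633, 129 and 415 in the leukaemias and at 77.4 or less in Pax5 WT.

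Blnk/Lcp2, BLNK against SLP-76, was 0.813 to 1.07 in Pax5 KO, 18.0 to 25.3 for Pax5 WT and 20.1, 12.2, 3.12 and 4.73 in the leukaemias. It was lower in Pax5 KO than in Pax5 WT by -4.40 ± 0.14 and higher in the leukaemias than in Pax5 KO by 3.00 ± 0.62 on the log2 scale. Recipient 1300 lay inside the Pax5 WT range, and the leukaemias against Pax5 WT did not pass (-1.41 ± 0.62, exact permutation test, adjusted p = 0.1).

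Btk/Tec was 5.80 to 7.37 in Pax5 KO, 5.17 to 5.42 for Pax5 WT and 1.79, 2.7, 3.41 and 2.67 in the leukaemias. Tec, the family relative, was at 1183 to 2877 in the leukaemias and 1241 to 1425 in Pax5 WT. The ratio was lower in the leukaemias than in Pax5 WT (-1.04 ± 0.19) and than in Pax5 KO (-1.32 ± 0.21), with no overlap.

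Blk/Lyn was 0.0847 to 0.0988 in Pax5 KO, 0.251 to 0.277 for Pax5 WT and 1.39, 1.74, 1.58 and 0.224 in the leukaemias. In recipients 1300, 1301 and 1302 there were more scaled reads of Blk than of Lyn, a Src-family kinase shared with myeloid cells. In recipient 1308 Lyn was at 11918 and the ratio lay below Pax5 WT, so the test against Pax5 WT did not pass (1.85 ± 0.71, exact permutation test, adjusted p = 0.15), while all 4 were above Pax5 KO (3.39 ± 0.71). Recipient 1308 also had the highest granulocyte and monocyte (160210), plasmacytoid dendritic cell (243710), NK and innate lymphoid, macrophage (31422) and erythroid markers. In recipient 1300 granulocyte and monocyte markers were at 134760 and Lyn was at 3254. The part of any of these cells in the Lyn levels was not tested.

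Plcg2/Plcg1 was 9.70 to 10.3 in Pax5 KO, 3.61 to 4.31 for Pax5 WT and 17.6, 44.3, 9.92 and 32.3 in the leukaemias. It was higher than Pax5 WT in Pax5 KO (1.39 ± 0.06) and in the leukaemias (2.54 ± 0.48). Plcg1, the isoform prominent in T cells, was at 202 to 1665 in the leukaemias against 2510 to 3926 in Pax5 WT, so the higher ratio went with a lower denominator. The leukaemias and Pax5 KO did not differ past the threshold (1.14 ± 0.48, exact permutation test, adjusted p = 0.126). In all, 7 of 7 ratios were called between Pax5 KO and Pax5 WT, 5 between the leukaemias and Pax5 WT and 4 between the leukaemias and Pax5 KO. Ratios of other pairs of genes were not computed, so these counts have no background to be read beside.

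The leukaemias differed among themselves more than the fetal liver libraries did. The median SD of a tested gene on the log2 scale was 0.11 in Pax5 KO, 0.16 in Pax5 WT and 0.47 in the leukaemias. Within the leukaemias the SD of Blnk, 1.22, was at percentile 81.6 of all tested genes, Igll1 (0.88) at 73.7 and Blk (0.77) at 70.3, while Syk (0.31) was at 25.6, Cd79b (0.36) at 36.0 and Btk (0.37) at 37.3. The highest recipient exceeded the lowest 7.61-fold for Blnk, 3.97-fold for Igll1, 3.68-fold for Blk and 1.59-fold for both Cd79b and Syk. Vpreb2, outside the set, ranged 19.9-fold.

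No recipient was highest or lowest throughout. Recipient 1302 had the highest Vpreb3, Cd79a, Syk, Btk, Blk and Plcg2 and the lowest Blnk. Recipient 1301 had the highest Vpreb1, Igll1 and Cd79b and the lowest Cd79a. Recipient 1300 had the lowest Vpreb1, Vpreb3, Igll1, Cd79b, Syk and Plcg2. Recipient 1308 had the highest Blnk and the lowest Btk and Blk. The median over the members was -1.24, -0.71, -0.72 and -0.995 log2 units from the Pax5 WT mean in recipients 1300, 1301, 1302 and 1308, and 7 of the 10 members were above the Pax5 KO mean in each.

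Across all 12 libraries, patterns were compared by the Pearson correlation of log2(value + 1), as a description in which group differences weigh most. Vpreb1, Vpreb3, Cd79a, Cd79b and Blnk ran closely together: r was 0.992 for Vpreb1 with Cd79b, 0.991 for Vpreb3 with Cd79b, 0.952 for Vpreb3 with Blnk and 0.931 for Cd79a with Cd79b. Igll1 stood further off (0.712 with Vpreb1), and Syk was near 0 with Vpreb1 (0.004) and higher with Btk (0.728). Plcg2 had negative r with the receptor chains and with Vpreb3, from -0.771 for Vpreb1 and -0.549 for Cd79a to -0.293 for Igll1. Of all tested genes outside the set, the pattern most like Vpreb1 was that of Tifa (0.994), most like Vpreb3 Cdkn2a (0.987), most like Igll1 Ppt1 (0.988), most like Cd79a Tpst1 (0.986) and most like Cd79b Pou2af1 (0.984). For Blnk it was Heyl (0.989), for Syk Stk4 (0.995), for Btk Kcnq5 (0.982), for Blk Cd84 (0.980) and for Plcg2 Ankrd13a (0.982).

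Other genes of the pathway are given as counts of tested non-members from lists of related genes, to be read beside the shares of all genes called above. The counts in the leukaemia comparisons are small, and many moved by over 1.5 times when 1 library was left out, any Pax5 KO or Pax5 WT replicate as well as single recipients; their ranges over the 8 fits with 1 library left out stand in parentheses. Of 10 Src-family kinases and regulators, 7 were higher and 2 lower in Pax5 KO than in Pax5 WT. In the leukaemias 5 were higher than Pax5 WT (4 to 6) and 5 did not pass, and 2 were higher (1 to 4) and 3 lower (1 to 5) than Pax5 KO. Lck, the main Src-family kinase of T cells, was at 2327 to 2404 in Pax5 KO, 363 to 492 for Pax5 WT and 7049, 13799, 5002 and 6363 in the leukaemias, where it rose by 4.11 ± 0.28 over Pax5 WT (adjusted p = 1.85e-05). Ptprc, the phosphatase CD45 that primes these kinases, rose in Pax5 KO by 1.90 ± 0.07 and in the leukaemias by 1.15 ± 0.19 over Pax5 WT. The direction of Lck was that of Blk in the leukaemias and the opposite of Blk in Pax5 KO.

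Among 13 tested T-cell receptor counterparts, 8 were higher and 2 lower in Pax5 KO than in Pax5 WT, 10 higher (8 to 10) and 1 lower (1 to 2) in the leukaemias than in Pax5 WT, and 6 higher (3 to 7) and 1 lower in the leukaemias than in Pax5 KO. The count of 6 was 3 without Pax5 KO replicate 1, 2 or 4. Ptcra and Themis were too low to be tested. Grap2, an adaptor of this list, rose by 2.64 ± 0.13 in Pax5 KO and 2.76 ± 0.23 in the leukaemias over Pax5 WT. Lcp2 fell by 2.67 on the log2 scale in Pax5 KO. The 10 T-lineage markers, several of them on this list, summed to 371 to 495 in Pax5 WT, 2699 to 2780 in Pax5 KO and 5687 to 14490 in the leukaemias, and their part in the counts was not tested. Most of each sum was Lck, which is itself on this list.

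Of 5 signalling adaptors used in other lineages, not all of them with an ITAM, 5 were higher in the leukaemias than in Pax5 WT. In Pax5 KO 4 of the 5 were higher than in Pax5 WT. Fcer1g was at 19463, 4023, 1277 and 26853 in the leukaemias, 6485 to 6990 in Pax5 KO and 28.0 to 81.7 in Pax5 WT. Tyrobp was at 1090, 986, 471 and 26271 in the leukaemias, 3212 to 3848 in Pax5 KO and 2.00 to 14.2 in Pax5 WT. Both were highest in recipient 1308, which also had the highest granulocyte and monocyte, plasmacytoid dendritic cell, NK and innate lymphoid, macrophage and erythroid markers. In recipient 1300 granulocyte and monocyte markers were at 134760, near the 160210 of recipient 1308, with Fcer1g at 19463 and Tyrobp at 1090. The part of any of these cells in these levels was not tested. Against Pax5 KO, 2 of the 5 were higher in the leukaemias (1 to 2) and 3 did not pass (2 higher and 2 lower without recipients 1300 and 1308), with no call for Fcer1g (0.10 ± 0.85, adjusted p = 0.935) or Tyrobp (-0.90 ± 1.07, adjusted p = 0.531). Both were lower than in Pax5 KO without recipients 1300 and 1308 (-1.56, adjusted p = 0.0174, and -2.39, adjusted p = 0.000811).

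Of 17 co-receptors and adaptors, 4 were higher and 10 lower in Pax5 KO than in Pax5 WT (lower 7 to 11). In the leukaemias 3 were higher (1 to 3) and 3 lower (2 to 6) than Pax5 WT, and 4 higher (4 to 5) and 1 lower (1 to 5) than Pax5 KO. Without recipient 1308 the lower counts were 6 and 5, and without recipients 1300 and 1308 they were 7 and 4. Lat2, an adaptor that can act beside BLNK, rose by 4.44 ± 0.10 in Pax5 KO (adjusted p = 6.84e-12) and by 5.17 ± 0.33 in the leukaemias (adjusted p = 1.25e-05) over Pax5 WT. Among the leukaemias Lat2 was at 3681, 1847, 1810 and 4943, highest in recipients 1300 and 1308, which also had the highest granulocyte and monocyte markers; the part of such cells was not tested. Lat, its T-cell relative, chosen here after its values were seen, was at 3458, 594, 138 and 2122 in the leukaemias, 143 to 164 in Pax5 KO and 44.7 to 66.2 in Pax5 WT.

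Of 15 genes of the PI3-kinase arm, 8 were higher and 5 lower in Pax5 KO than in Pax5 WT, 2 higher (1 to 2) and 5 lower (4 to 6) in the leukaemias than in Pax5 WT. Against Pax5 KO, 7 were lower in the leukaemias (4 to 9, and 4 without any 1 Pax5 KO replicate) and 8 did not pass. Pik3r1, a regulatory subunit, rose by 2.42 ± 0.07 in Pax5 KO and by 0.93 ± 0.18 in the leukaemias over Pax5 WT. Foxo1, a transcription factor that this arm restrains, fell by 0.99 in Pax5 KO and fell by 1.28 in the leukaemias on the log2 scale.

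Downstream of Plcg2, 19 calcium, protein kinase C and NF-kappaB genes gave 10 higher and 4 lower in Pax5 KO than in Pax5 WT. In the leukaemias 1 was higher (1 to 5, with 5 without recipient 1301) and 3 lower (1 to 4) than Pax5 WT, and 1 was higher (1 to 2) and 7 lower (4 to 9) than Pax5 KO. Without recipients 1300 and 1308, 10 were lower than Pax5 KO. Prkcb, the protein kinase C of B cells, fell by 1.84 in Pax5 KO and fell by 1.52 in the leukaemias. Rasgrp3, a Ras activator that responds to the lipid product of PLCG2, was at 11626 to 12552 in Pax5 KO, 280 to 383 for Pax5 WT and 191 to 881 in the leukaemias, so it rose in Pax5 KO by 5.28 ± 0.09. Its relative Rasgrp1 ran the other way between the fetal liver groups. It fell by 4.00 in Pax5 KO and was at 1.31, 447, 1324 and 206 in the leukaemias.

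Of 18 inhibitory receptors and phosphatases, 8 were higher and 8 lower in Pax5 KO than in Pax5 WT, 5 higher (5 to 7) and 2 lower (0 to 4) in the leukaemias than in Pax5 WT, and 4 higher (2 to 5) and 2 lower (1 to 5) in the leukaemias than in Pax5 KO. Without recipients 1300 and 1308, 5 were lower than Pax5 WT and 6 lower than Pax5 KO. Cd22, an inhibitory co-receptor of B cells, fell by 2.81 in Pax5 KO and fell by 0.94 in the leukaemias against Pax5 WT. Siglecg was at 2403 to 2553 in Pax5 WT, 35.3 to 64.7 in Pax5 KO and 0, 206, 651 and 1759 in the leukaemias. Sla2, an adaptor that dampens antigen receptor signalling, rose by 5.37 ± 0.15 in Pax5 KO and by 3.69 ± 0.51 in the leukaemias over Pax5 WT.

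Of 16 transcription factors known to act on these genes, 3 were higher and 11 lower in Pax5 KO than in Pax5 WT, 1 higher (0 to 1) and 10 lower (10 to 12) in the leukaemias than in Pax5 WT, and 5 higher (1 to 4) and 4 lower (4 to 6) in the leukaemias than in Pax5 KO. The count of 5 was 1 without any 1 Pax5 KO replicate and 7 without recipients 1300 and 1308. Pou2af1, a coactivator at octamer sequences, was at 925 to 1132 in Pax5 KO, 28795 to 31418 for Pax5 WT and 10956, 10634, 17044 and 7293 in the leukaemias. No group overlapped another, and the order was that of Vpreb3, Cd79a, Cd79b and Blnk. Ebf1 was at 5725 to 6639 in Pax5 KO, 17954 to 20222 for Pax5 WT and 6436, 7632, 11594 and 2333 in the leukaemias, and its level in the leukaemias did not differ from Pax5 KO past the threshold (0.02 ± 0.41, adjusted p = 0.981). Ebf1 was higher than in Pax5 KO without recipients 1300 and 1308 (0.65, adjusted p = 0.0206). Tcf3 fell by 1.64 in Pax5 KO and fell by 2.57 in the leukaemias, and was lower in the leukaemias than in Pax5 KO (-0.92 ± 0.14). Lef1 fell by 4.43 in Pax5 KO and fell by 4.53 in the leukaemias against Pax5 WT, and in the latter it fell by 2.69 without recipients 1300 and 1308. Pax5 differed between the leukaemias and Pax5 KO by 1.58 ± 0.46 (adjusted p = 0.0255), a call lost without any 1 Pax5 KO library or without recipient 1300, 1301 or 1302 (adjusted p = 0.0535 to 0.0676).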

How the data were processed

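The data are RNA-seq values of 12 libraries, 4 each of Pax5 KO, Pax5 WT and P80R B-ALL, grouped by their titles. The submitters' processing notes name fastp, featureCounts, STAR 2.7.8a and build mm39; no source used here gives the annotation, strand setting, treatment of multiply matching reads or origin of the scaling factors. The signal deposited by the authors is a scaled read count: 100% of them were whole multiples of 1 step per library within a tolerance of 0.001, so the authors had divided whole reads by 1 factor per library (0.723 to 1.38). Multiplication gave back 24914250 to 43513852 reads per library, which limits precision for low genes only. For Pax5 WT replicates 2 and 3 the factor was within 2% of 1, and their recovered reads were used in the count alternatives like those of the other 10. The table held 21885 rows, 5237 at 0 throughout; 21780 matched a symbol in GENCODE M21 (GRCm38), used for names and exon lengths, and 105 did not. Promoters are RefSeq on GRCm38.p6, an older build than the files' mm39, used for sequence only.

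Values were analysed as log2(value + 1) with limma 3.58.1 (R 4.3.3; trend and robust, two-sided), 4 against 4 libraries per comparison, over 12200 genes that reached 10 in 4 or more libraries. Fold changes are on this scale and understate the change of low genes. Adjusted p-values are Benjamini-Hochberg over all tested genes, with a threshold of 0.05. Partner ratios used exact permutation tests. The fit was tested on simulated data: known changes were recovered, and calls held their nominal error with equal spread in both groups, but exceeded it where 1 group varied as widely as the leukaemias do, so calls near the threshold in the leukaemia comparisons are less certain than their p. Alternatives were edgeR 4.0.16 and DESeq2 1.42.0 on recovered reads, TMM scaling, other pseudocounts and filters, a fit to all 12 libraries, a replicate block, each library left out, and, chosen after seeing the data, recipients 1300 and 1308 left out together and Vpreb1 summed with Vpreb2. Ratios and tables used Python 3.11.15 with numpy 2.4.6, pandas 2.3.3 and scipy 1.17.1.

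The members and gene lists were chosen with earlier results of these data known. Named genes were all members, up to 3 non-members per list with the smallest adjusted p, Vpreb2, the ratio denominators, Pax5, Ebf1 and Tcf3, and the gene most like each member in pattern; Top3b, Gm32220 and Lat were added after their values or sequences were seen. The immunoglobulin constant region genes Ighm, Ighd, Igkc, Iglc1, Iglc2 and Iglc3 were not analysed here.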

Additional observations from a re-analysis of the deposited data

Results flagged for a closer look

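In 54 groups of 4 libraries, the highest or lowest library was compared with the range of the others, and about 1 in 20 such groups is marked by chance alone; 2 were. Plcg2 in recipient 1302 was at 16520, against 8015 to 8942 in the other 3 leukaemias. The log2 ratio of Blk to Lyn in recipient 1308 was -2.16, against 0.47 to 0.80 in the others, with Blk at 2665 and Lyn at 11918 in that library.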

How the results depend on the processing

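Members called stayed at 10 between Pax5 KO and Pax5 WT and 8 between the leukaemias and Pax5 KO with each library left out in turn (10 to 10 and 8 to 8), and ranged from 6 to 9 between the leukaemias and Pax5 WT. Genes called ranged from 7276 to 8102, 3118 to 5315 and 3477 to 5375 in the same order, beside 7901, 4683 and 4873; the lowest of the 2nd range came without Pax5 KO replicate 3. The fit to all 12 libraries called 4193 genes between Pax5 KO and Pax5 WT. Where a direction turned the cause was not tested, beyond fewer libraries in some fits. Against Pax5 WT (log2, leukaemias minus Pax5 WT), Vpreb2 was -0.18, and 0.75 with edgeR, 0.80 with DESeq2, 1.53 without recipients 1300 and 1308, and -0.93 to 0.51 with 1 library left out. Lyn was -0.05, and 0.17 with edgeR, 0.22 with DESeq2 and -0.46 to 0.22 with 1 library left out. Rasgrp3 was 0.34, and -0.40 without both recipients and -0.047 to 0.69 with 1 library left out. Against Pax5 KO, edgeR gave Fgr 1.19 (-0.32 here), Tyrobp 1.04 (-0.90) and Lef1 0.97 (-0.10), and DESeq2 gave Lef1 0.99. Without recipients 1300 and 1308, Lef1 was 1.74, Btk 0.003 (-0.15), Grap2 -0.082 (0.12), Fcer1g -1.56 (0.10) and Lyn -0.019 (0.26). With 1 library left out, Ebf1 ran from -0.30 to 0.47, Fcer1g from -0.53 to 0.93, Lef1 from -0.77 to 0.87, Igll1 from -0.084 to 0.58, Vpreb2 from -0.27 to 1.17, Rasgrp1 from -0.59 to 2.47, Fgr from -1.40 to 0.44, Btk from -0.27 to 0.02 and Lyn from -0.15 to 0.53. None of these differences passed the threshold over all 8 libraries. Vpreb2 against both groups and Lef1, Fcer1g, Tyrobp, Ebf1, Fgr and Rasgrp1 against Pax5 KO passed it without recipients 1300 and 1308 (adjusted p = 0.000234 to 0.0206). Rasgrp1 also passed without recipient 1300 (2.47, adjusted p = 0.0156) and with DESeq2 (adjusted p = 0.039), and Fgr (-1.40, adjusted p = 0.0324) and Tyrobp (adjusted p = 0.000963) without recipient 1308. Vpreb1/Igll1 between Pax5 KO and Pax5 WT was 0.073 with Vpreb2 added, beside -1.09. A replicate block between Pax5 KO and Pax5 WT called 7987 genes and 10 members. Same-numbered libraries deviated with correlations of 0.00493, 0.0216, 0.0318 and 0.0616, and not every library correlated best with its own number. These small correlations showed no clear pairing by number, but they cannot exclude a shared source or batch. The paired exact permutation test of each ratio gave its smallest possible p, 0.125.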
